A study of Mus musculus with 21 samples.

Results

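Stimulated peritoneal macrophages whose libraries are labelled Lum-/- were set against stimulated macrophages labelled Bgn-/-, so both sides carry a knockout label and neither is a control. The comparison takes 8 of the 21 RNA sequencing libraries of the series, chosen by genotype and treatment as the labels give them, with no measured value used. There are 4 libraries per label: LPS alone, the label's own protein followed by LPS, CpG alone, and the own protein followed by CpG. They form 4 matched pairs, and all 8 belong to groups of 1 library.

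Per the labels, cells labelled Lum-/- came from lumican knockout mice and cells labelled Bgn-/- from biglycan knockout mice (Bgn-/0 and -/-), and all mice were on C57BL/6. No age is given. The cells were CD11b+ cells from the unelicited peritoneal cavity, with mice given as n = 10 for the study, and no label ties a library to an animal. The stimuli lasted 6 h, with LPS at 100 ng/mL or CpG DNA at 1 µM. The own protein was recombinant lumican for Lum-/- and recombinant biglycan for Bgn-/-, at 10 µg/mL and 1 h before the stimulus. Wild-type cells under the same stimuli (6 libraries, with no protein, lumican or biglycan) are given beside the main values for orientation.

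Both proteins belong to the family of small leucine-rich proteoglycans, which organise collagen in the matrix. Free biglycan is known as a ligand of the Toll-like receptors TLR2 and TLR4, and lumican is known to bind CD14 and to alter responses to LPS. TLR4 senses LPS at the cell surface and in endosomes, and its endosomal branch leads to interferon beta. TLR9 senses unmethylated CpG DNA in endosomes. Interferon-stimulated genes are switched on by the ISGF3 complex, which binds the interferon-stimulated response element in their promoters.

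The promoters of Ifit3 and Ifit1 are shown first, because these antiviral RNA-binding genes gave some of the largest differences between the LPS and the CpG comparison described below. Both are the bases before the annotated start on the plus strand, from RefSeq with the build GRCm38.p6, at chr19:34583279-34583528 and chr19:34640639-34640888. Capitals mark matches to the response element, searched as GAAANNGAAA on both strands. All 4 matches lie on the minus strand and are therefore printed as the reverse complement.
Ifit3: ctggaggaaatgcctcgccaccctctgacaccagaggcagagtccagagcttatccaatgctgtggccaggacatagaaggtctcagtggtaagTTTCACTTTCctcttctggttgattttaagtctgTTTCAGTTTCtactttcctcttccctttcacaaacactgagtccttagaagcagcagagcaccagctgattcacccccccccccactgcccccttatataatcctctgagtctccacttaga
Ifit1: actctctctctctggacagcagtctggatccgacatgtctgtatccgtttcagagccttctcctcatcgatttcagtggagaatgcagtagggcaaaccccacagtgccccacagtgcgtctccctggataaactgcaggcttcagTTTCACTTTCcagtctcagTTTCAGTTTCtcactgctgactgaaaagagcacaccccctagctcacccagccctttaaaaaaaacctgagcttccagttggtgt
In Ifit3 the matches began 156 and 122 bases before the start, and in Ifit1 they began 104 and 85 bases before it.

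Values are TPM, which scale reads by transcript length and library total, as the authors deposited them and summed per gene. Differences are log2(TPM + 1) in Lum-labelled cells minus that in Bgn-labelled cells, with the standard error (±), over the 4 pairs unless LPS or CpG is named, in which case they are over the 2 pairs of that stimulus. A gene was called at a Benjamini-Hochberg adjusted p under 0.05 in limma, over the 11510 genes that averaged 1 TPM or more. Pairs of values for 1 label and stimulus are the library without protein and then the library with the own protein. In bulk samples fewer cells of a type and less RNA per cell cannot be told apart. The 2 libraries of a label and stimulus differ by the own protein. The fits of the label differences remove an effect of the protein that both labels share, while one that differs between the labels adds to the spread behind the p-values. Over the 4 pairs, a label difference that varies with the stimulus adds to that spread as well. No p-value measures the spread between animals.

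The targeted genes went against the labels. Lum (chromosome 10, 97565128 to 97572703) stood at 14.1 and 12.0 TPM under LPS and at 2.88 and 3.93 TPM under CpG in cells labelled Lum-/-. In cells labelled Bgn-/- it stood at 0.105 and 0.134 TPM under LPS and at 0.0334 and 0 TPM under CpG, so the groups did not overlap. Wild-type cells without protein had 1.40 TPM under LPS and 0.273 TPM under CpG. The difference was 2.88 ± 0.34 (limma, adjusted p = 0.00994), toward higher Lum in the libraries named for its loss.

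Bgn (X chromosome) ran the other way and likewise against its label. It stood at 0.0322 and 0 TPM under LPS and at 0.0325 and 0 TPM under CpG in cells labelled Lum-/-. Cells labelled Bgn-/- had 0.758 and 1.18 TPM under LPS and 3.49 and 3.03 TPM under CpG, and wild-type cells without protein had 0.330 TPM under LPS and 0.961 TPM under CpG. The difference was -1.51 ± 0.27 (limma, adjusted p = 0.0261) and its call was lost without the pair with own protein and LPS. Without either CpG pair, after scaling by median of ratios and with more libraries in the fit, it averaged under 1 TPM and was not tested. Reads outside a deleted part of either gene cannot be told from intact transcripts in these values. Whether the labels of the 2 genotypes are exchanged in the deposit cannot be told from these values. If they are, every direction below turns and the own protein of a label is that of the other genotype. Directions are given here as labelled, for Lum-labelled relative to Bgn-labelled cells.

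**Figure D1:**
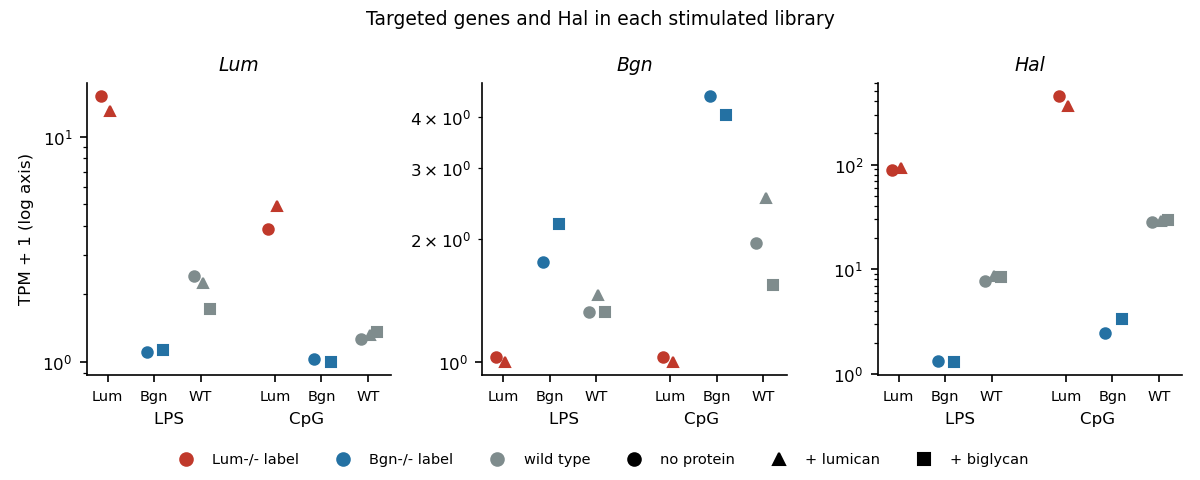
TPM + 1 of Lum, Bgn and Hal (log axis) under LPS and CpG, with Lum-labelled libraries left of Bgn-labelled ones and wild-type libraries last. Each point is 1 library and its shape gives the protein. Lum lies between 2.88 and 14.1 TPM in Lum-labelled libraries and at or under 0.134 TPM in Bgn-labelled ones, and Bgn shows the reverse order.

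The libraries held 50990 to 59404 transcripts above 0, and their depth is not stated. The median absolute log2 difference between the labels was 0.171 to 0.203 in the 4 pairs, against 0.104 to 0.177 between libraries with and without the own protein of the same label. The labels give an A260/230 ratio of 0.13 for the Lum-labelled CpG library and 0.2 for the Lum-labelled library with lumican and LPS, against 2.63 to 3.36 for the other 6. Its part in the results was not tested, and both stimuli have 1 Lum-labelled library with each kind of ratio.

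Over the 4 pairs, 372 genes were higher in Lum-labelled cells (3.23% of those tested) and 778 were lower (6.76%). The counts of gene lists over the 4 pairs below are to be read against these shares. The median over all genes was -0.09. Scaled by median of ratios, the data gave a split of 514 higher and 317 lower, so 61.9% of calls were then higher in place of 32.3%. A difference of over 2-fold was seen in 81 of the higher and 44 of the lower calls. Leaving out a pair lowered the total of 1150 calls to 348 without the LPS pair, 330 without the pair with own protein and LPS, 201 without the CpG pair and 199 without the pair with own protein and CpG. Calls over the 4 pairs, or of a difference between stimuli, that a single left-out pair ended are given beside the genes.

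The named gene with the largest difference was Hal, which encodes histidine ammonia-lyase and lies near Lum on chromosome 10. It stood at 88.2 and 92.3 TPM under LPS and at 447 and 359 TPM under CpG in Lum-labelled cells. In Bgn-labelled cells it stood at 0.324 and 0.297 TPM under LPS and at 1.46 and 2.36 TPM under CpG. Wild-type cells lay between the labels, with 6.80 TPM under LPS and 27.1 TPM under CpG, and the difference was 6.62 ± 0.24 (limma, adjusted p = 0.000313). Within 10 Mb of Lum, 2 genes were higher and 7 were lower of 51 tested (17.6% called). Within 10 Mb of Bgn, 2 were higher and 3 were lower of 58 (8.62% called). Over all genes tested 3.23% were higher and 6.76% were lower.

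Genes of alternatively activated macrophages were among the largest positive differences, and some had nearly the same difference in every pair. Retnla, a secreted product of alternatively activated mouse macrophages, had 93.2 and 84.6 TPM under LPS and 136 and 122 TPM under CpG in Lum-labelled cells. Bgn-labelled cells had 27.7 and 25.7 TPM under LPS and 44.0 and 37.8 TPM under CpG, a difference of 1.67 ± 0.05 (limma, adjusted p = 0.000185). Chil3, a chitinase-like protein of the same state, had 12.0 and 13.2 TPM under LPS and 17.4 TPM in both libraries under CpG in Lum-labelled cells. In Bgn-labelled cells it had 2.59 and 2.78 TPM under LPS and 3.85 and 3.94 TPM under CpG (difference 1.90 ± 0.07; limma, adjusted p = 0.000333).

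Arg1, the arginase that competes with nitric oxide synthase for arginine, was higher in Lum-labelled cells as well, by 2.06 ± 0.21 (limma, adjusted p = 0.00735). It had 28.4 and 7.33 TPM under LPS and 67.2 and 24.3 TPM under CpG in Lum-labelled cells, against 2.94 and 1.17 TPM under LPS and 18.4 and 7.36 TPM under CpG in Bgn-labelled cells. The library with own protein lay below the one without in each label and stimulus. The list of alternative activation genes did not move as 1 group: 4 of 12 tested were higher and 4 were lower. The mannose receptor Mrc1 was higher (0.66 ± 0.10; limma, adjusted p = 0.0190), while Alox15, a lipoxygenase, and the transcription factor Myc were lower (-0.77 ± 0.13 and -0.69 ± 0.11; limma, adjusted p = 0.0253 and 0.0187). When single pairs were left out, 2 were higher and 0 to 1 were lower. The calls of Mrc1 and Myc were lost whichever pair was left out, and that of Alox15 without either CpG pair and without the pair with own protein and LPS.

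Surface receptors and an interferon-inducible gene were also among the 14 largest positive differences. Siglec1, a sialic acid receptor, had 64.1 and 38.8 TPM under LPS and 54.1 and 37.9 TPM under CpG in Lum-labelled cells, against 13.3 and 9.83 TPM under LPS and 6.05 and 7.82 TPM under CpG in Bgn-labelled cells (2.29 ± 0.17; limma, adjusted p = 0.00393). Ifi27l2a, an interferon-inducible gene, had 552 and 465 TPM under LPS and 663 and 695 TPM under CpG in Lum-labelled cells, against 182 and 148 TPM under LPS and 105 and 109 TPM under CpG in Bgn-labelled cells (2.13 ± 0.22; limma, adjusted p = 0.00720). Fcgr1, the high-affinity IgG receptor, differed by 1.89 ± 0.21 and lost its call without the pair with own protein and CpG. Ly6i and Ms4a6b, both cell surface genes, differed by 1.55 ± 0.08 and 1.60 ± 0.19, and the call of Ms4a6b was lost without the CpG pair. Each of these 5 genes was higher in all 4 pairs, which the rule that chose them required.

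Among secreted proteins, Saa1, an acute-phase apolipoprotein, had 26.2 and 17.3 TPM under LPS and 36.1 and 17.3 TPM under CpG in Lum-labelled cells. Bgn-labelled cells had 4.81 and 3.05 TPM under LPS and 4.90 and 1.5 TPM under CpG, a difference of 2.48 ± 0.14 (limma, adjusted p = 0.00138). Saa3, its abundant macrophage relative, had 125656 and 119276 TPM under LPS and 100532 and 111728 TPM under CpG in Lum-labelled cells. It had 104840 and 88638 TPM under LPS and 74434 and 62374 TPM under CpG in Bgn-labelled cells, and at 0.49 ± 0.12 it missed the threshold over the 4 pairs (limma, adjusted p = 0.051). Timp1, an inhibitor of matrix metalloproteases, was higher by 2.19 ± 0.17 (69.2 and 41.9 TPM under LPS and 21 and 15.6 TPM under CpG in Lum-labelled cells, against 16.4 and 13.1 TPM under LPS and 2.83 and 1.74 TPM under CpG in Bgn-labelled cells). The collagenase Mmp13 was higher by 1.06 ± 0.12 and the elastase Mmp12 was lower by 0.54 ± 0.10 on this scale (limma, adjusted p = 0.00864 and 0.0334). The call of Mmp12 was lost without the LPS pair, without either CpG pair and after scaling.

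**Figure D2:**
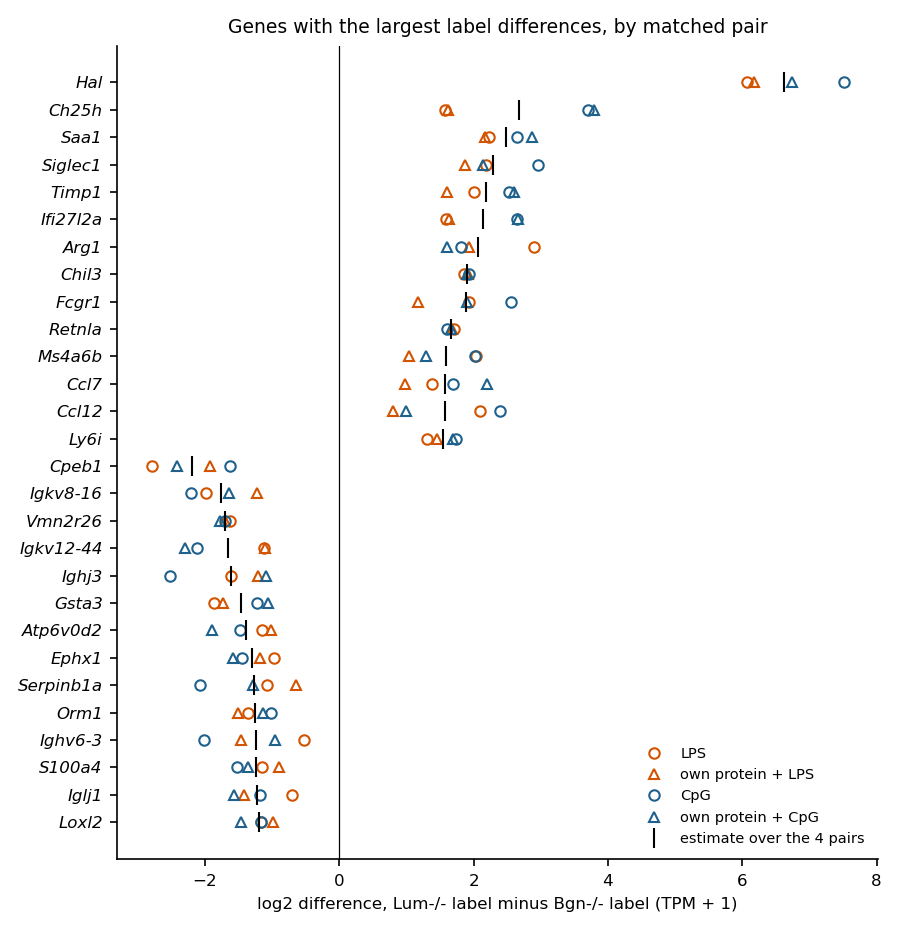
Difference between the labels (Lum-labelled minus Bgn-labelled cells, log2(TPM + 1)) of 14 genes with large positive differences, above, and 14 with large negative ones, below. They are the largest each way among called genes with 10 TPM or more in the mean of the higher label and 1 sign in 4 pairs. Each open symbol is 1 matched pair and the black tick is the estimate over the 4 pairs. All 4 pairs of every gene lie on the same side of 0, which the choice of genes required, and Hal lies farthest from it.

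Ch25h, which makes 25-hydroxycholesterol, was higher in Lum-labelled cells and more so under CpG. It had 963 and 569 TPM under LPS and 108 and 109 TPM under CpG in Lum-labelled cells, against 322 and 185 TPM under LPS and 7.37 and 6.90 TPM under CpG in Bgn-labelled cells. The difference was 1.59 ± 0.20 under LPS and 3.75 ± 0.20 under CpG, and these differed from each other by -2.15 ± 0.29 (limma, adjusted p = 0.0111). The difference over the 4 pairs was 2.67 ± 0.44 (limma, adjusted p = 0.0225), and its call was lost without either CpG pair.

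Genes of cholesterol synthesis were higher in Lum-labelled cells. Of 24 tested, 19 were higher and none was lower, with a median difference of 0.48 against -0.09 for all genes. After scaling the count was also 19. It was 11 without the LPS pair, 12 without the pair with own protein and LPS, 6 without the CpG pair and 8 without the pair with own protein and CpG. Under LPS 12 were higher, 3 without the LPS pair, 10 without the pair with own protein and LPS and 19 after scaling. Under CpG 16 were higher, and 1 without either CpG pair. None was called for a difference between the stimuli.

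Hmgcs1, which encodes an HMG-CoA synthase of the mevalonate pathway, was higher by 0.48 ± 0.09 (limma, adjusted p = 0.0332), and its call was lost without the LPS pair and without either CpG pair. It had 62.2 and 50.3 TPM under LPS and 133 and 99.7 TPM under CpG in Lum-labelled cells, against 43.2 and 43.1 TPM under LPS and 77.1 and 74.6 TPM under CpG in Bgn-labelled cells. Fdps, farnesyl diphosphate synthase, had 169 and 164 TPM under LPS and 409 and 358 TPM under CpG in Lum-labelled cells, against 96.0 and 93.7 TPM under LPS and 232 and 221 TPM under CpG in Bgn-labelled cells. That was a difference of 0.78 ± 0.05 (limma, adjusted p = 0.00169). Idi1, Pmvk and Hsd17b7, further enzymes of the pathway and among its most different members, differed by 0.72 ± 0.06, 0.73 ± 0.08 and 0.79 ± 0.09. The call of Hsd17b7 was lost without the CpG pair.

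Genes of the oxysterol receptor LXR and of oxysterol enzymes, tested as 1 list, moved in both directions. Of 14 tested, 4 were higher, Ch25h among them, and 3 were lower. Apoe, the lipid-carrying apolipoprotein E, had 8033 and 8135 TPM under LPS and 10448 and 10671 TPM under CpG in Lum-labelled cells. It had 3880 and 3838 TPM under LPS and 5212 and 5244 TPM under CpG in Bgn-labelled cells, a difference of 1.04 ± 0.05 (limma, adjusted p = 0.00135). Apoc2, which activates lipoprotein lipase and lies in the same gene cluster, was higher by 1.23 ± 0.15. Abcg1, the LXR target that exports cholesterol to HDL, was lower (-0.84 ± 0.12; limma, adjusted p = 0.0158), with 25.1 and 27 TPM under LPS and 32.8 and 37.6 TPM under CpG in Lum-labelled cells against 38.7 and 41.0 TPM under LPS and 77.9 and 72.4 TPM under CpG in Bgn-labelled cells. Without the CpG pair 2 genes of the list were higher and 1 was lower, and without the pair with own protein and CpG 2 were higher and 0 lower, Abcg1 among the lost calls.

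Complement genes were higher in Lum-labelled cells. Of 21 complement and coagulation genes tested, 11 were higher and none was lower, with a median difference of 0.39, and the count was 7 whichever pair was left out. C1qb, a chain of the first complement component, had 310 and 229 TPM under LPS and 536 and 382 TPM under CpG in Lum-labelled cells, against 95.1 and 68.3 TPM under LPS and 243 and 193 TPM under CpG in Bgn-labelled cells (1.39 ± 0.14; limma, adjusted p = 0.00731). The other chains, C1qa and C1qc, differed by 1.25 ± 0.15 and 1.35 ± 0.13. F13a1, a chain of coagulation factor XIII that is typical of monocytes, differed by 1.55 ± 0.13 at a lower level, with 2.45 to 14.7 TPM in Lum-labelled cells and 0.295 to 3.09 TPM in Bgn-labelled cells.

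Of 20 uptake receptors tested 6 were higher and 2 were lower, and 2 to 4 were higher and 0 to 2 were lower when single pairs were left out. The IgG receptor Fcgr4 and the scavenger receptor Stab1 were higher by 1.39 ± 0.11 and 1.28 ± 0.21, and Axl, a receptor for apoptotic cells, by 1.04 ± 0.08. Cd36, a receptor for oxidized lipids, was lower (-0.57 ± 0.10; limma, adjusted p = 0.0284). The calls of Stab1 and Cd36 were lost without either CpG pair and without the pair with own protein and LPS. Msr1 and Marco, scavenger receptors at 804 to 2250 TPM in the 8 libraries, differed by -0.02 ± 0.06 and -0.16 ± 0.05 and were not called.

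Neither receptor for the stimuli was called over the 4 pairs. Tlr4 had 48.5 and 56.7 TPM under LPS and 44.7 and 46.7 TPM under CpG in Lum-labelled cells, against 62.3 and 70.4 TPM under LPS and 38 and 43.8 TPM under CpG in Bgn-labelled cells. Its difference was -0.09 ± 0.11, and under LPS alone it was lower (-0.33 ± 0.08; limma, adjusted p = 0.0489), a call that was lost whichever pair was left out and after scaling. Tlr9 had 2.99 to 4.50 TPM in Lum-labelled cells and 4.19 to 5.42 TPM in Bgn-labelled cells and was not called (limma, adjusted p = 0.172). Cd14, the LPS co-receptor, was higher by 0.39 ± 0.05 (limma, adjusted p = 0.00947). It had 2990 and 3118 TPM under LPS and 946 and 1077 TPM under CpG in Lum-labelled cells, against 2246 and 2354 TPM under LPS and 735 and 819 TPM under CpG in Bgn-labelled cells, and its call was lost without either CpG pair. Of 27 receptors and adaptors tested 2 were higher and 3 were lower, and after scaling 3 were higher and none was lower. When single pairs were left out, 0 to 1 were higher and none was lower.

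The genes called under LPS and those called under CpG overlapped in part. A gene called under 1 stimulus only is not thereby shown to differ between the stimuli, which the test in the next paragraph addresses. Under LPS, 338 genes were higher (2.94%) and 579 were lower (5.03%) in Lum-labelled cells. Under CpG, 540 were higher (4.69%) and 469 were lower (4.07%). After scaling the split was 523 higher and 372 lower under LPS, and 634 higher and 214 lower under CpG. The 171 genes that were higher under both made up 50.6% of those higher under LPS and 31.7% of those higher under CpG. The 181 genes that were lower under both made up 31.3% of those lower under LPS and 38.6% of those lower under CpG. Opposite calls were few, with 3 genes higher under LPS and lower under CpG, and 14 the other way. The total under LPS was 917 genes, and 279 without the LPS pair, 375 without the pair with own protein and LPS, 555 without the CpG pair and 489 without the pair with own protein and CpG. The total under CpG was 1009 genes, and 297 without the CpG pair and 303 without the pair with own protein and CpG.

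The test of the difference between the stimuli called 255 genes. In 45 the LPS difference was the more positive (0.391%) and in 210 it was the more negative (1.82%). The total was 138 without the LPS pair, 114 without the pair with own protein and LPS, 119 without the CpG pair and 125 without the pair with own protein and CpG. In the same order, the more positive genes were 27, 17, 15 and 4 and the more negative ones 111, 97, 104 and 121.

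Interferon-stimulated genes were called throughout in that test. All 36 tested were higher in Lum-labelled cells under CpG, with a median difference of 1.65, against 1 that was higher under LPS, with a median of -0.05. All 36 had a more negative LPS than CpG difference (median -1.77). Without single pairs the CpG count was 34 to 36 and the count for the difference between stimuli 28 to 33. Over the 4 pairs limma called none in either direction, and 13 had an unadjusted p under 0.05. All 36 estimates over the 4 pairs lay above 0, and the difference between the stimuli adds to the spread in that fit. When the 6 wild-type libraries joined the fit, the count for the difference between stimuli was 1.

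Ifit3 had 1040 and 838 TPM under LPS and 211 and 140 TPM under CpG in Lum-labelled cells, against 846 and 777 TPM under LPS and 18.7 and 21.1 TPM under CpG in Bgn-labelled cells. The LPS values of the labels lay close together and the CpG values did not overlap. The difference was 0.20 ± 0.15 under LPS and 3.05 ± 0.15 under CpG, and the stimuli differed by -2.85 ± 0.22 (limma, adjusted p = 0.00102). Reads of Ifit3 may be shared with its near-identical neighbour Ifit3b, so its level is uncertain.

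Ifit1 had 643 and 578 TPM under LPS and 116 and 82.7 TPM under CpG in Lum-labelled cells, against 679 and 634 TPM under LPS and 19 and 16.9 TPM under CpG in Bgn-labelled cells. The stimuli differed by -2.49 ± 0.14 (limma, adjusted p = 0.000334). Ifit2, of the same family, differed between the stimuli by -2.66 ± 0.21, with 97.5 and 58.0 TPM in Lum-labelled and 9.36 and 9.17 TPM in Bgn-labelled cells under CpG. Irf7, the transcription factor that amplifies interferon production, had 1743 and 1337 TPM under LPS and 537 and 433 TPM under CpG in Lum-labelled cells. It had 1304 and 1112 TPM under LPS and 68.7 and 70.2 TPM under CpG in Bgn-labelled cells, a CpG difference of 2.78 ± 0.10 (limma, adjusted p = 1.49e-05).

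Ifi44, an antiviral gene, had 66.9 and 47.0 TPM under LPS and 16.5 and 11.9 TPM under CpG in Lum-labelled cells, against 51.6 and 43.3 TPM under LPS and 1.31 and 0.778 TPM under CpG in Bgn-labelled cells. The stimuli differed by -2.64 ± 0.15 (limma, adjusted p = 0.000334). Oasl1, of the oligoadenylate synthetase family, differed between the stimuli by -2.54 ± 0.17 (limma, adjusted p = 0.000546), with 47.7 and 32.8 TPM in Lum-labelled and 5.82 and 5.30 TPM in Bgn-labelled cells under CpG. Under LPS its 4 values lay between 493 and 556 TPM. All 6 of these genes were higher in Lum-labelled cells in both CpG pairs.

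**Figure D3:**
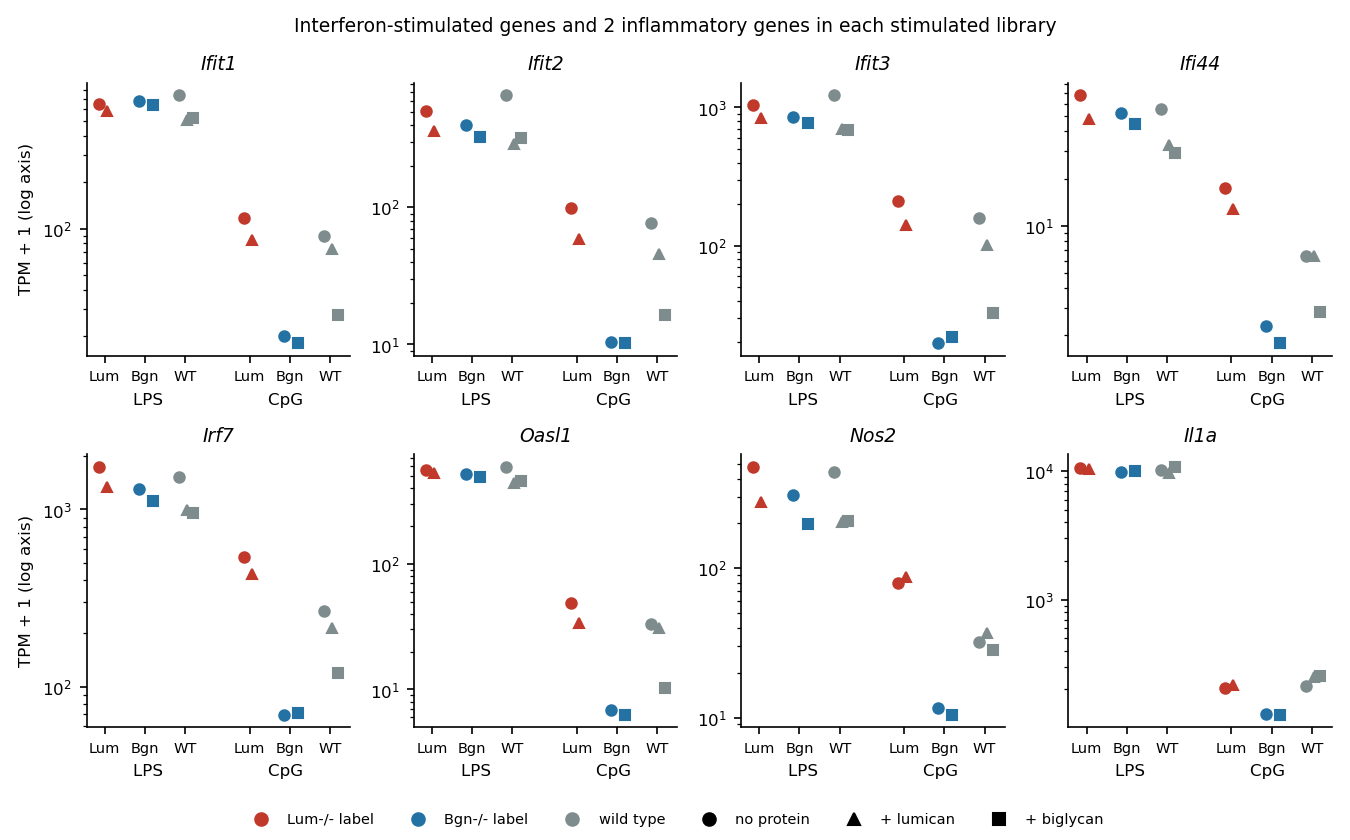
TPM + 1 (log axis) of 6 interferon-stimulated genes and of Nos2 and Il1a in Lum-labelled, Bgn-labelled and wild-type libraries, under LPS and under CpG. Each point is 1 library and its shape gives the protein. For Ifit3, Lum-labelled libraries lie at 140 and 211 TPM and Bgn-labelled ones at 18.7 and 21.1 TPM under CpG, while under LPS all 4 lie between 777 and 1040 TPM.

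Summed over the 36 genes, Lum-labelled cells had 25634 and 21076 TPM under LPS and 7539 and 6253 TPM under CpG. Bgn-labelled cells had 23406 and 21172 TPM under LPS and 2207 and 2113 TPM under CpG. Wild-type cells had 27242 TPM under LPS and 5246 TPM under CpG without protein. With lumican they had 17870 TPM under LPS and 4416 TPM under CpG, and with biglycan 18090 TPM under LPS and 2795 TPM under CpG. In 34 of the 36 genes wild-type cells without protein lay between the labels under CpG, and in 8 of 36 under LPS. The same was true of 39.4% of all genes under CpG and of 41.5% under LPS. The labels lay far apart in the 36 genes under CpG, which makes such a place of the wild type likely, so these counts are not a separate result. Per pair, the median difference of the list was -0.01 for LPS, -0.10 for own protein and LPS, 1.77 for CpG and 1.53 for own protein and CpG.

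In the neighbouring groups of interferon-inducible genes most of the higher calls likewise came under CpG, while the calls under LPS varied between the groups. Of 17 guanylate-binding proteins and immunity-related GTPases tested, which attack intracellular pathogens, 12 were higher under CpG and 3 were lower under LPS, and 13 differed between the stimuli. The LPS count was 1 without either LPS pair. Gbp2 was among the lower ones under LPS, with 728 and 665 TPM in Lum-labelled against 1058 and 1047 TPM in Bgn-labelled cells (-0.60 ± 0.08; limma, adjusted p = 0.00732; lost without either LPS pair), and under CpG its difference was 0.11 ± 0.08. Tgtp2 had 170 and 155 TPM under LPS and 44.8 and 45.0 TPM under CpG in Lum-labelled cells, against 202 and 190 TPM under LPS and 10.7 and 11.2 TPM under CpG in Bgn-labelled cells, so its order turned between the stimuli.

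Of 15 Ifi200 and Schlafen genes tested 14 were higher under CpG, none was called under LPS and 12 differed between the stimuli, or 7 without the pair with own protein and LPS. Ifi213, of the DNA-sensing Ifi200 cluster, had 27.6 and 18.8 TPM in Lum-labelled against 2.30 and 2.19 TPM in Bgn-labelled cells under CpG (2.87 ± 0.14; limma, adjusted p = 3.69e-05). Of 15 genes of MHC class I presentation 12 were higher under CpG and 2 under LPS, with 1 lower under LPS and 11 that differed between the stimuli. Without the CpG pair 6 were higher under CpG, and the 11 became 1 to 4 without single pairs. Tap1, the peptide transporter, had 104 and 96.3 TPM in Lum-labelled and 48.2 and 46.7 TPM in Bgn-labelled cells under CpG, and 264 and 239 TPM in Lum-labelled and 256 and 246 TPM in Bgn-labelled cells under LPS. The interferon genes themselves were too low to test, and Ifnb1 had 1.35 and 0.864 TPM in Lum-labelled and 1.36 and 1.22 TPM in Bgn-labelled cells under LPS and was listed at 0 in all 4 libraries under CpG. These gene groups lose nearly all calls of a difference between stimuli once wild-type libraries join the fit, with 0 left of 13 GTPases, 0 of 12 Ifi200 and Schlafen genes and 0 of 11 class I genes.

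**Figure D4:**
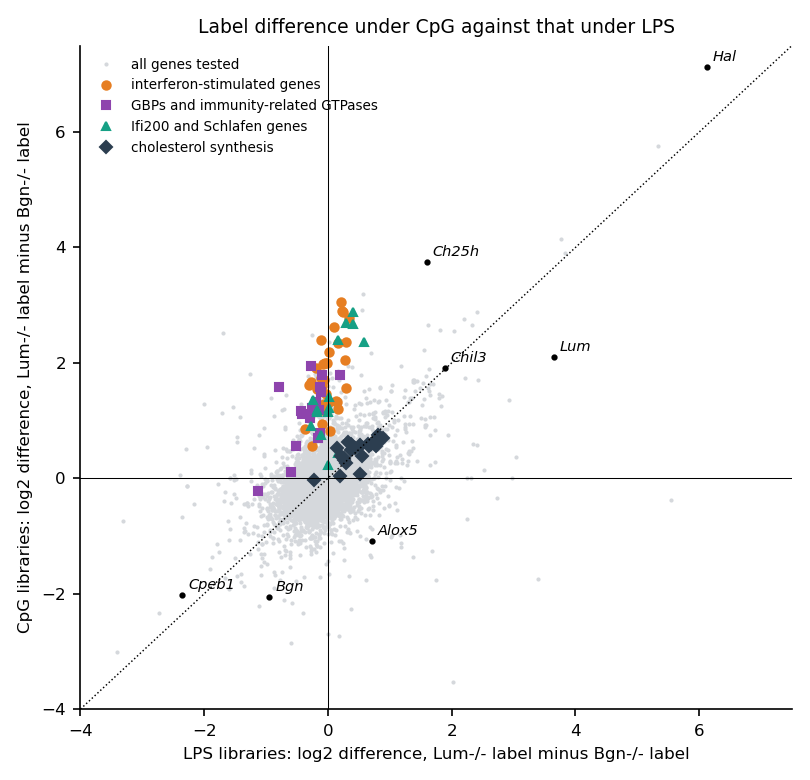
Difference between the labels under CpG against that under LPS (log2(TPM + 1), Lum-labelled minus Bgn-labelled cells) for all genes tested, with 4 gene lists in colour and 7 named genes in black. Each point is 1 gene and the dotted line marks equal differences. The interferon-stimulated genes lie above 0 on the CpG axis, with a median of 1.65, and around 0 on the LPS axis, with a median of -0.05.

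The response element marked above was also searched in the promoters of all genes with an entry. It was present in 50 of the 154 genes with a promoter entry that had a more negative LPS than CpG difference (32.5%) and in 0 of 23 with a more positive one. It was present in 74 of 389 genes that were higher under CpG (19%) and in 11 of 237 that were higher under LPS (4.64%). The share was 4.12% of the tested genes with an entry (357 of 8655) and 3.99% of all genes with an entry (1079 of 27025). Of the interferon-stimulated list 15 of 27 had a match (55.6%). The windows run from 250 bases before to 50 bases after the start. A match is a description of the letters and not a binding site.

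Of 21 inflammatory cytokine genes tested, 6 were higher over the 4 pairs and none was lower, with 5 higher and 1 lower under LPS and 13 higher under CpG. The difference between the stimuli itself was called in 7, in 3 to 5 without single pairs, in 5 after scaling and in 2 with the wild-type libraries. Without the pair with own protein and CpG 3 were higher over the remaining pairs, and without the LPS pair 0 were higher under LPS. Tnf had 3880 and 4495 TPM under LPS and 331 and 381 TPM under CpG in Lum-labelled cells, against 3549 and 4268 TPM under LPS and 218 and 262 TPM under CpG in Bgn-labelled cells. Its CpG difference was 0.57 ± 0.05 (limma, adjusted p = 0.000556) and its LPS difference 0.10 ± 0.05 was not called. Il6 had 2981 and 2713 TPM in Lum-labelled and 3515 and 3426 TPM in Bgn-labelled cells under LPS, and 7.72 to 13.7 TPM in the 4 libraries under CpG. Il1a, which encodes interleukin 1 alpha, had 10536 and 10500 TPM in Lum-labelled and 9833 and 10023 TPM in Bgn-labelled cells under LPS, and 204 and 217 TPM in Lum-labelled and 128 and 126 TPM in Bgn-labelled cells under CpG.

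Csf3, which encodes the granulocyte growth factor G-CSF, was higher under both stimuli. It had 1156 and 848 TPM under LPS and 3.36 and 6.10 TPM under CpG in Lum-labelled cells, against 435 and 358 TPM under LPS and 1.02 and 1.22 TPM under CpG in Bgn-labelled cells (1.36 ± 0.10; limma, adjusted p = 0.00372). Lif, an interleukin 6 family cytokine, and Tnfsf9, the ligand of the receptor 4-1BB, were higher by 0.96 ± 0.11 and 0.93 ± 0.11, and the call of Lif was lost without the pair with own protein and CpG. Nos2, the inducible nitric oxide synthase, had 480 and 278 TPM under LPS and 79.0 and 86.1 TPM under CpG in Lum-labelled cells. It had 311 and 197 TPM under LPS and 10.6 and 9.46 TPM under CpG in Bgn-labelled cells, and the difference of 2.92 ± 0.20 under CpG was called (limma, adjusted p = 0.000179), with a difference between stimuli of -2.37 ± 0.29 (limma, adjusted p = 0.00732). Ptgs2, the inducible cyclooxygenase, likewise differed under CpG (1.35 ± 0.06; limma, adjusted p = 2.68e-05), with 77.3 and 77.9 TPM in Lum-labelled and 30.9 and 28.7 TPM in Bgn-labelled cells, and by 0.19 ± 0.06 under LPS.

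Of 23 chemokine genes tested, 8 were higher and 2 were lower over the 4 pairs, and the higher count was 2 without the LPS pair, 5 without the pair with own protein and LPS, 0 without the CpG pair and 3 without the pair with own protein and CpG. Ccl2, the main monocyte attractant, had 4345 and 2186 TPM under LPS and 39.4 and 32.3 TPM under CpG in Lum-labelled cells. It had 2296 and 1587 TPM under LPS and 8.65 and 5.86 TPM under CpG in Bgn-labelled cells (1.43 ± 0.31; limma, adjusted p = 0.0441). Ccl7 had 2162 and 780 TPM under LPS and 10.5 and 9.98 TPM under CpG in Lum-labelled cells, against 828 and 393 TPM under LPS and 2.54 and 1.38 TPM under CpG in Bgn-labelled cells (1.57 ± 0.19; limma, adjusted p = 0.0103). Ccl12 and Ccl8, of the same gene cluster, were higher by 1.57 ± 0.29 and 1.68 ± 0.24 at levels of at most 31.8 and 4.47 TPM. The calls of Ccl2 and Ccl12 were lost without the LPS pair and without either CpG pair, that of Ccl7 without the CpG pair, and that of Ccl8 without the LPS pair and without the CpG pair. Ccl3 and Ccl4, attractants of T and NK cells, had 17781 and 19087 TPM and 10411 and 8331 TPM under LPS in Lum-labelled cells, against 15789 and 16375 TPM and 7466 and 6319 TPM in Bgn-labelled cells, and only Ccl4 was called over the 4 pairs (0.86 ± 0.18; limma, adjusted p = 0.0407), a call that was lost whichever pair was left out. Reads of Ccl2, Ccl7, Ccl8 and Ccl12 come from related genes and could be split among them by the authors' estimation.

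Of 20 NF-kB subunits and feedback genes tested 4 were higher and none was lower, and 0 to 2 were higher when single pairs were left out. The subunit genes Nfkb1, Nfkb2 and Rel differed by 0.06 ± 0.06, 0.01 ± 0.06 and -0.10 ± 0.08. Socs3, an inhibitor of cytokine receptors, was higher by 0.71 ± 0.09 (limma, adjusted p = 0.0120), with 845 and 649 TPM under LPS and 212 and 197 TPM under CpG in Lum-labelled cells, against 583 and 452 TPM under LPS and 123 and 98.5 TPM under CpG in Bgn-labelled cells. That call was lost without the CpG pair. Ier3, an immediate early gene that limits cell death, was higher by 0.78 ± 0.07 (limma, adjusted p = 0.00461) and Klf2, a transcription factor that restrains inflammatory genes, was lower (-0.75 ± 0.17; limma, adjusted p = 0.0468). The list of immediate early genes had 5 higher and 1 lower of 19, and 1 higher when any pair was left out. The call of Klf2, its lower member, was lost after scaling and without any pair other than the LPS pair.

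**Figure D5:**
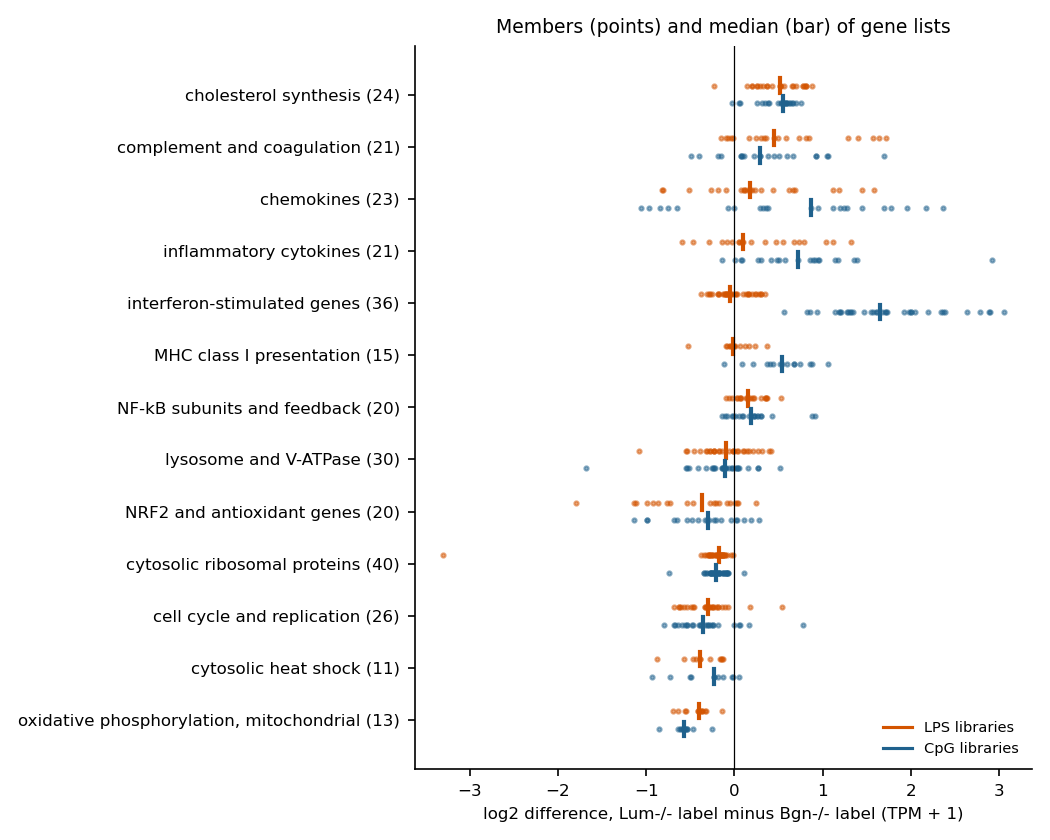
Difference between the labels (log2(TPM + 1), Lum-labelled minus Bgn-labelled cells) of the members of 13 gene lists under LPS (orange) and under CpG (blue), with the number tested after each name. Each point is 1 gene and each bar is the median. Interferon-stimulated genes have a median of 1.65 under CpG and of -0.05 under LPS, while cholesterol synthesis has medians of 0.51 under LPS and 0.55 under CpG.

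Of the antioxidant genes several were lower in Lum-labelled cells and none was higher over the 4 pairs. Gsta3, a glutathione S-transferase, had 28 and 36.5 TPM under LPS and 77.2 and 90.4 TPM under CpG in Lum-labelled cells, against 104 and 123 TPM under LPS and 181 and 189 TPM under CpG in Bgn-labelled cells. Its difference was -1.47 ± 0.14 (limma, adjusted p = 0.00652), and it differed between the stimuli by -0.66 ± 0.12 (limma, adjusted p = 0.0432), a call that was lost whichever pair was left out. Of 20 genes of the NRF2 and antioxidant list 8 were lower and none was higher, and 7 were lower after scaling. The count was 6 without the LPS pair, 5 without the pair with own protein and LPS, 4 without the CpG pair and 5 without the pair with own protein and CpG. Gstm1, Gstm2 and Nqo1, a quinone reductase, were lower by 0.86 ± 0.07, 1.06 ± 0.09 and 0.84 ± 0.08 on this scale. Nqo1 had 24.1 and 27.6 TPM under LPS and 48.5 and 49.5 TPM under CpG in Lum-labelled cells, against 48.6 and 56.4 TPM under LPS and 79.9 and 78.1 TPM under CpG in Bgn-labelled cells. Nfe2l2, which encodes NRF2, and its repressor Keap1 were not called, at -0.16 ± 0.06 and -0.04 ± 0.11. Ephx1, an epoxide hydrolase that stands outside the list, was lower by 1.30 ± 0.11, with 12.6 to 40.2 TPM in Lum-labelled cells and 29.7 to 117 TPM in Bgn-labelled cells.

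Cpeb1, which binds the tails of mRNAs and sets their translation, had the largest negative difference among the named genes, at -2.19 ± 0.20 (limma, adjusted p = 0.00502). It had 0.745 and 1.86 TPM under LPS and 6.08 and 4.14 TPM under CpG in Lum-labelled cells, against 11.1 and 9.91 TPM under LPS and 20.8 and 26.5 TPM under CpG in Bgn-labelled cells. Atp6v0d2, a V-ATPase subunit of macrophages and osteoclasts, was lower by 1.38 ± 0.15, with 1.46 and 2.11 TPM under LPS and 10.3 and 8.86 TPM under CpG in Lum-labelled cells, against 4.44 and 5.28 TPM under LPS and 30.4 and 35.6 TPM under CpG in Bgn-labelled cells. S100a4, a calcium-binding protein of motile cells, was lower by 1.24 ± 0.11, and Loxl2, a lysyl oxidase that cross-links collagen, by 1.20 ± 0.10. Orm1, an acute-phase glycoprotein, was lower by 1.25 ± 0.09, opposite to Saa1 of the same list. Serpinb1a, an inhibitor of neutrophil proteases, was lower by 1.27 ± 0.22, and Vmn2r26, a vomeronasal receptor gene, by 1.70 ± 0.07. Each of these differences was called in limma over the 4 pairs (adjusted p = 0.000435 to 0.0260), and that of Serpinb1a was lost without the LPS pair and without either CpG pair, and that of Atp6v0d2 without the CpG pair.

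Lysosomal genes divided, with 3 of 30 higher and 7 lower, and 4 each way after scaling. When single pairs were left out, 0 to 1 were higher and 1 to 3 were lower. Gpnmb, a glycoprotein of lipid-laden macrophages, was lower (-0.50 ± 0.05; limma, adjusted p = 0.00810), with 287 and 258 TPM under LPS and 560 and 527 TPM under CpG in Lum-labelled cells, against 400 and 347 TPM under LPS and 770 and 816 TPM under CpG in Bgn-labelled cells. Cd68, a macrophage lysosomal glycoprotein, was lower by 0.36 ± 0.05 and lost its call whichever pair was left out, and Lamp1, a lysosomal membrane protein, differed by -0.01 ± 0.05.

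Genes encoded by the mitochondrial genome were lower in Lum-labelled cells, 11 of 13 with none higher, and 10 after scaling. Their median difference was -0.49. The count was 9 without the LPS pair, 5 without the pair with own protein and LPS, 3 without the CpG pair and 2 without the pair with own protein and CpG. Among them mt-Nd3, a subunit of complex I, had 734 and 705 TPM under LPS and 1173 and 1052 TPM under CpG in Lum-labelled cells, against 1086 and 1164 TPM under LPS and 1727 and 1722 TPM under CpG in Bgn-labelled cells (-0.64 ± 0.05; limma, adjusted p = 0.00427). The nuclear subunits of the same complexes had 7 lower of 31, and 1 after scaling and 0 to 1 without single pairs. Nnt, the transhydrogenase that is mutated in some C57BL/6 substrains, had 1.73 and 2.73 TPM under LPS and 9.25 and 8.97 TPM under CpG in Lum-labelled cells, against 4.71 and 4.42 TPM under LPS and 16.4 and 18.6 TPM under CpG in Bgn-labelled cells (-0.84 ± 0.11; limma, adjusted p = 0.0130). Its call was lost without either CpG pair.

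Of 40 cytosolic ribosomal protein genes 14 were lower in Lum-labelled cells, with a median of -0.21, and 1 after scaling. Rps27 stood apart from the other 39, which lay between -0.33 and -0.04. It had 98.9 and 177 TPM under LPS and 83 and 1738 TPM under CpG in Lum-labelled cells, against 1263 and 1371 TPM under LPS and 218 and 1845 TPM under CpG in Bgn-labelled cells. Its difference of -2.02 ± 0.57 was not called (limma, adjusted p = 0.0764), and the 6 wild-type libraries lay between 48.4 and 1315 TPM. Of 20 genes of the unfolded protein response 6 were lower, and 0 after scaling, and of 11 heat shock genes 6 were lower, and 2 after scaling. The heat shock genes Hspa1a and Hspa1b, near-identical copies whose reads cannot be fully told apart, differed by -0.65 ± 0.11 and -0.91 ± 0.10, and the call of Hspa1a was lost without either CpG pair and without the pair with own protein and LPS. Of 26 cell cycle genes 8 were lower, and 5 after scaling. Top2a, the topoisomerase of dividing cells, was lower (-0.66 ± 0.09; limma, adjusted p = 0.0124) while Mki67 was higher (0.66 ± 0.07; limma, adjusted p = 0.00918), with 46.8 and 63.0 TPM under LPS and 12.1 and 11.3 TPM under CpG in Lum-labelled cells, against 32 and 42.8 TPM under LPS and 6.74 and 6.13 TPM under CpG in Bgn-labelled cells. Without single pairs 0 to 1 ribosomal, 0 to 1 unfolded protein response, 1 to 3 heat shock and 0 to 2 cell cycle genes were called lower, and the call of Top2a was lost without either CpG pair.

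In several further groups few genes were called over the 4 pairs. Of 24 genes of glycolysis and hypoxia 5 were higher and 1 was lower, and 1 to 2 were higher and none lower without single pairs. Pfkfb3, which makes the activator of phosphofructokinase, was higher (0.63 ± 0.06; limma, adjusted p = 0.00652), with 170 and 107 TPM under LPS and 59.4 and 47.7 TPM under CpG in Lum-labelled cells, against 122 and 71.1 TPM under LPS and 35.2 and 28.9 TPM under CpG in Bgn-labelled cells. Its call held whichever pair was left out. The glucose transporter Slc2a1 and the hexokinase Hk2 were higher by 0.32 ± 0.05 and 0.38 ± 0.06, and both calls were lost whichever pair was left out. Of 11 integrin genes 2 were higher and 1 was lower, the lower one being Itga6 (-0.51 ± 0.05; limma, adjusted p = 0.00731), which was called whichever pair was left out.

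Of 13 inflammasome genes 1 was higher and 1 was lower. Nlrp3, the sensor, was higher by 0.45 ± 0.10 and lost its call whichever pair was left out, and the adaptor Pycard differed by -0.58 ± 0.09 and kept its call without the LPS pair only. Casp1, the protease of the inflammasome, was not called over the 4 pairs (-0.41 ± 0.16). Of 12 metallothionein and iron genes 2 were higher, of 10 class II presentation genes 1 was higher, and of 16 caveolin, flotillin and endosome genes 1 was lower. None of 11 co-stimulatory and checkpoint ligands was called over the 4 pairs in limma, with 2 at an unadjusted p under 0.05.

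Immunoglobulin segments made up 5 of the 14 genes named for large negative differences. Igkv8-16 had 5.05 to 6.66 TPM in Lum-labelled cells and 13.1 to 28.7 TPM in Bgn-labelled cells (-1.76 ± 0.16; limma, adjusted p = 0.00567). Igkv12-44, Ighj3, Ighv6-3 and Iglj1 differed by -1.66 ± 0.23, -1.61 ± 0.24, -1.24 ± 0.24 and -1.22 ± 0.15, and their reads may be shared with related segments. The levels of Ighj3 and Iglj1 varied widely between libraries. Ighj3 ran from 8.52 to 35.6 TPM in Lum-labelled cells, and Iglj1 from 0 to 36.8 TPM in the stimulated wild-type libraries. Calls were lost for Igkv12-44 and Ighv6-3 without either CpG pair, for Ighv6-3 also without the pair with own protein and LPS, for Iglj1 without the CpG pair, and for Ighj3 without the LPS pair and without the pair with own protein and CpG. Beside them, 5 of 15 B cell markers tested were lower and none was higher, with a median of -0.33, and 1 to 3 were lower without single pairs. Cd79b, a chain of the B cell receptor, had 23.1 and 22.7 TPM under LPS and 13.9 and 15.3 TPM under CpG in Lum-labelled cells, against 33.2 and 31.7 TPM under LPS and 26.6 and 33 TPM under CpG in Bgn-labelled cells, and its call was lost without either CpG pair. The 16 B cell markers summed to 857 to 1208 TPM in Lum-labelled cells and 974 to 1729 TPM in Bgn-labelled cells, and the 8 plasma cell markers to 84.0 to 176 TPM in Lum-labelled cells and 79.8 to 219 TPM in Bgn-labelled cells. The part of B lineage cells in these differences was not tested.

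Markers of macrophages were high in both labels. Adgre1, which encodes the macrophage antigen F4/80, had 542 to 603 TPM in Lum-labelled cells and 551 to 586 TPM in Bgn-labelled cells. The 14 markers of large peritoneal macrophages, the resident population, summed to 2002 to 3073 TPM in Lum-labelled cells and 1921 to 3290 TPM in Bgn-labelled cells, and of 13 tested 1 was higher and 3 were lower, or 0 higher and 0 to 2 lower without single pairs. Timd4, a phosphatidylserine receptor of resident macrophages, was lower (-0.97 ± 0.14; limma, adjusted p = 0.0158) and the chemokine Cxcl13 was higher (0.74 ± 0.16; limma, adjusted p = 0.0440). The call of Timd4 was lost without the CpG pair and that of Cxcl13 whichever pair was left out. The 12 markers of small peritoneal macrophages and monocytes, Retnla among them, summed to 209 to 494 TPM in Lum-labelled cells and 119 to 335 TPM in Bgn-labelled cells. Of 8 tested 2 were higher and 1 was lower, and 4 estimates lay above 0 and 4 below it. Beside Retnla, Ly6c2, a monocyte marker, was higher (0.59 ± 0.09; limma, adjusted p = 0.0176), and the transcription factor Irf4 was lower (-0.36 ± 0.07; limma, adjusted p = 0.0286). The call of Ly6c2 was lost without either LPS pair and without the CpG pair, and that of Irf4 whichever pair was left out and after scaling. Of the 12 markers 4, Ccr2 among them, were under 1 TPM in every library. The part of these markers in the differences of Retnla, Chil3, F13a1 and Ccl2 was not tested.

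Markers of other cells differed widely in level, and mast cell markers summed higher in Lum-labelled cells. The 14 mast cell markers summed to 177 and 182 TPM under LPS and 26.9 and 28.2 TPM under CpG in Lum-labelled cells. In Bgn-labelled cells they summed to 160 and 143 TPM under LPS and 9.39 and 9.81 TPM under CpG. Hdc, at 136 to 166 TPM, made up most of the LPS sums. Only 4 of the 14 markers averaged 1 TPM or more and were tested, and 1 was called higher, Cyp11a1 (1.77 ± 0.10; limma, adjusted p = 0.00148). The 13 T cell markers summed to 9.81 to 12.9 TPM in Lum-labelled cells and 12.7 to 18 TPM in Bgn-labelled cells, and all 8 NK cell markers were under 1 TPM in every library. Neutrophil markers summed to at most 638 TPM in Lum-labelled cells and 707 TPM in Bgn-labelled cells, with the granule genes Elane and Ngp at 0. Eosinophil markers summed to 3.01 to 4.19 TPM in Lum-labelled cells and 2.74 to 3.69 TPM in Bgn-labelled cells, with Epx at 0. Fibroblast and mesothelial markers summed to 9.03 to 19.4 TPM in Lum-labelled cells and 9.61 to 20.1 TPM in Bgn-labelled cells, with Krt19 and Muc16 at 0. Platelet and megakaryocyte markers summed to 1078 to 1595 TPM in Lum-labelled cells and 879 to 1420 TPM in Bgn-labelled cells. Dendritic cell markers summed to 22.4 to 53.7 TPM in Lum-labelled cells and 29.9 to 66.0 TPM in Bgn-labelled cells.

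A few genes had a more positive difference under LPS than under CpG. Alox5, the lipoxygenase that starts leukotriene synthesis, had 2.86 and 3.65 TPM under LPS and 11 and 8.47 TPM under CpG in Lum-labelled cells, against 1.62 and 1.56 TPM under LPS and 19 and 24.8 TPM under CpG in Bgn-labelled cells. The order of the labels thus turned between the stimuli (1.8 ± 0.27; limma, adjusted p = 0.0175). Rasgrp2, an activator of the small GTPase Rap1, turned in the same way (1.29 ± 0.17; limma, adjusted p = 0.0110), with 3.08 and 3.85 TPM under LPS and 13.4 and 16.1 TPM under CpG in Lum-labelled cells, against 1.53 and 1.84 TPM under LPS and 19.9 and 24.6 TPM under CpG in Bgn-labelled cells. Kcnn3, a potassium channel, and Ighv1-76, an immunoglobulin segment, differed between the stimuli by 1.25 ± 0.22 and 1.68 ± 0.27, and Lum itself by 1.54 ± 0.27. For Lum this order holds on the log2(TPM + 1) scale only. Its ratio of mean TPM between the labels was 109 under LPS and 204 under CpG, with at most 0.0334 TPM in Bgn-labelled cells under CpG. The calls of Alox5, Kcnn3, Ighv1-76 and Lum were lost whichever pair was left out, and that of Rasgrp2 without any pair other than the LPS pair. None of the 5 was called with the wild-type libraries in the fit.

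No gene was called for a change of the difference with the own protein. The term for the own-protein pairs minus the pairs without protein gave 0 calls in limma, with 273 genes at an unadjusted p under 0.05. In this term lumican and biglycan cannot be told apart from the labels they were given to. Some genes were lower with own protein in both labels, such as Fcgr1, with 179 and 52.2 TPM under LPS in Lum-labelled cells, against 46.0 and 22.7 TPM in Bgn-labelled cells. Wild-type cells under LPS had 111 TPM of Fcgr1 without protein, 28.2 TPM with lumican and 25.9 TPM with biglycan.

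Wild-type cells without protein lay between the labels in 14 of 14 of the genes named for the most positive differences, under LPS and under CpG. For the 14 genes named for the most negative differences this held in 9 under LPS and 12 under CpG. These genes were chosen for a wide gap between the labels, which makes such a place of the wild type likely, so the counts are not a separate result. Among the cholesterol synthesis genes wild-type cells lay between the labels in 10 of 24 under LPS and 15 of 24 under CpG. Over all genes tested this held in 41.5% under LPS and 39.4% under CpG. For Retnla wild-type cells had 79.1 TPM under LPS and 103 TPM under CpG, nearer to Lum-labelled cells, and for Apoe 5246 and 6578 TPM, nearer to Bgn-labelled cells. For Hmgcs1 they had 40.1 TPM under LPS, below both labels, and 89.4 TPM under CpG, between them.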

How the data were processed

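Per the labels' protocols, libraries were made with a stranded TruSeq kit and sequenced on an Illumina HiSeq instrument. The submitters' processing notes name kallisto 0.44.0, bcl2fastq 1.8.4 and the build GRCm38. Values were deposited as TPM per transcript, which the authors normalized within each library, so a large change in abundant transcripts shifts all others. Of 89562 transcripts the table names a gene for 82788, GENCODE vM21 gave one for 5424, and 1350 were left out (5426.7 to 7548.3 TPM in the 8 libraries). TPM was summed to 23545 genes.

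With no counts, no count model was used. Genes that averaged 1 TPM or more were fitted on log2(TPM + 1) with limma 3.58.1 in R 4.3.3, with label and pair as terms and eBayes with a trend (3 residual degrees of freedom, two-sided). Further fits added a term for label by stimulus or for label by own protein. The stimulus fit also gave the LPS and CpG differences, which were added after the data were seen. The fold changes of low genes are understated by the pseudocount. An exact sign-flip test of 4 pairs cannot go below p = 0.125, so single values are described. The method was tested on simulated data.

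Members and gene lists were chosen with earlier results of these data known. Named genes are Lum, Bgn, Tlr4, Tlr9 and Cd14, the 14 called genes each way with the largest difference among those with 10 TPM or more in the higher label and 1 sign in 4 pairs, the 5 each way for each further term, and from each list the first 3 measured and the 4 most different members. Ccr2, Ifnb1 and the markers at 0 were chosen after their values were seen. Of the 248 genes that the lists name by this rule, the text gives part, chosen with their values seen, and others are not reported here. Alternatives were pseudocounts of 0.1 and 5, other filters, scalings and covariates, the most abundant transcript, robust eBayes, more libraries, fewer pairs and, added later, coding genes only. Sums, lists and plots were made in Python 3.11.15 (matplotlib 3.10.9, numpy 2.4.6, pandas 2.3.3).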

Additional observations from a re-analysis of the deposited data

Results flagged for a closer look

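The difference between the labels itself differed between LPS and CpG in 255 genes, by the limma term for label and stimulus. It was more negative under LPS for Ifit3 (-2.85 on the log2 scale), Ifit2 (-2.66), Ifi44 (-2.64), Oasl1 (-2.54) and Ifit1 (-2.49), where Lum-labelled cells were higher than Bgn-labelled cells under CpG. It was more positive under LPS for Alox5 (1.8), Ighv1-76 (1.68), Lum (1.54), Rasgrp2 (1.29) and Kcnn3 (1.25). For Lum the ratio of mean TPM between the labels ran the other way, with 109 under LPS and 204 under CpG. These values rest on 2 libraries per label and stimulus.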

How the results depend on the processing

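The number of genes called over the 4 pairs was 1150. It was 311 with no filter, 13 with no covariate, 263 with all 21 libraries and 1 in only the 2 pairs without protein, a fit with 1 residual degree of freedom. Those pairs are 1 under LPS and 1 under CpG, so a difference between the stimuli adds to the spread of that fit. Only the 2 LPS pairs gave 783 and only the 2 CpG pairs 1406, also with 1 residual degree of freedom. The number was 199 to 348 with single pairs left out. The other alternatives gave 803 to 1309. The 21 libraries include an unstimulated one labelled Bgn-/- with biglycan, which had 183 TPM of Hal and 601 TPM of Arg1. In the same order, the untreated Bgn-labelled library had 2.59 and 2.67 TPM and the untreated Lum-labelled library 182 and 688 TPM. The unstimulated Lum-labelled library with lumican had 258 and 13.4 TPM. Whether the biglycan library bears the right label was not tested. Of the called genes that were tested again, 1149 of 1149 kept their direction after median-of-ratios scaling, 1121 of 1133 with the most abundant transcript and 1146 of 1147 with all 21 libraries. Of the 28 genes named for their difference, 28 stayed called after scaling, 20 with no filter, 18 with all 21 libraries, 19 to 27 with single pairs left out and 5 with no covariate.

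The difference between the stimuli was called in 255 genes, in 67 with no filter, in 11 in the 14 stimulated libraries with wild type and in 114 to 138 with single pairs left out. The other alternatives gave 208 to 304. Of the 10 genes named for it, 10 stayed called after scaling, 5 with no filter, 5 to 6 with single pairs left out and 0 in the 14 stimulated libraries. The term for own protein called 0 genes under every alternative run. The number of cholesterol synthesis genes called higher was 12 with no filter and 3 with all 21 libraries, against 19. The causes of these changes were not tested.

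No paired analysis was possible because the labels give no replicate number that joins animals or cultures across groups. The pairs used here match treatments only. With 1 library per group the fits measure the spread between pairs. TPM without counts leaves the precision of low genes unknown, and genotype and cell preparation cannot be told apart.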
